A study of Mus musculus with 47 samples.

Results

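Primary microglia that carry the human APOE3 gene were fed myelin, and 8 RNA libraries recorded what had changed 21 h after the feeding ended. The 8 libraries are all those of the E3 genotype among the 47 of the series, taken by the genotype and treatment in their titles. In the 4 E3 myelin libraries the cells had myelin for 3 h and were collected at 24 h, and in the 4 E3 untreated libraries they stayed without myelin for 24 h. Both groups came from forebrain cultures of C57BL/6 mice of a Taconic line in which human APOE ε3 takes the place of mouse Apoe, and both were grown in medium with 10% fetal bovine serum, which itself brings lipoproteins. For comparison 3 other genotypes were read the same way, each with 5 myelin and 5 untreated libraries: E4 (human APOE ε4 in place of mouse Apoe, also Taconic), KO (Apoe-/-, Jackson Laboratory) and WT (mouse Apoe intact, Jackson Laboratory). E3 and E4 thus came from one supplier and WT and KO from the other, so that the APOE allele and the source of the mice cannot be told apart where E3 is set against WT or KO. The series also holds Het libraries (Apoe+/-, 5 untreated and 4 myelin). These entered only where all 47 libraries were scaled or fitted together. The comparison asks which genes E3 microglia change once they have taken up myelin, and where that differs from E4, WT and KO. The labels give no age, and they do not state that each replicate is its own animal or culture. A p-value here therefore reflects only how far the libraries scatter, and part of that may be technical.

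Microglia are the macrophages of the brain and clear myelin debris by phagocytosis. Myelin is rich in cholesterol, and a cell that digests it frees cholesterol and sphingolipids in the lysosome. The nuclear receptors LXRα and LXRβ sense oxidised cholesterol and switch on export pumps and lipid carriers, apolipoprotein E among them. SREBP2, held back when sterols are plentiful, drives the enzymes that make cholesterol and the receptor that imports it. TFEB, TFE3 and MITF drive genes of the lysosome. Apolipoprotein E receives exported cholesterol and carries it to other cells.

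Values are scaled TPM: the deposited TPM, which are relative transcript abundances corrected for length, were rescaled to 1000000 over nuclear protein-coding genes in each library and then by a library factor. Nuclear protein-coding genes held 10.1% to 23.7% of the deposited TPM in the E3 myelin libraries and 11.1% to 16.6% in the E3 untreated libraries. A single non-coding gene, Gm23935, held 73.6% to 87.5% over all 8. The depth of the libraries is unknown, because TPM keep no read number. Replicate 3 of the E3 myelin group stood apart, with the 23.7% above, and had a score of 31.9 on the first principal component (46.5% of the variance) where the other myelin libraries had 3.76 to 10.1. The E3 comparison was therefore also computed without it, which is what "without replicate 3" means below. Mouse Apoe checked the labels against genotypes with the intact mouse gene: with all 47 libraries scaled together it averaged 154 ± 55.0 scaled TPM in E3 myelin libraries and 103 ± 10.8 in E3 untreated libraries (SD, n = 4 each), against 56028 ± 6785 in WT untreated libraries (n = 5). Within each treatment the E3 and E4 ranges did not overlap. Untreated libraries had 87.2 to 112 in E3 and 137 to 222 in E4, and myelin libraries 104 to 232 in E3 and 307 to 731 in E4. Across treatments the level does not tell E3 from E4, since the E3 myelin range holds that of the E4 untreated libraries. KO libraries averaged 74.8 after myelin and 74.6 untreated (n = 5 each). Human APOE was not analysed here.

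Microglia and macrophage identity genes summed to 18724 to 25501 scaled TPM in E3 myelin libraries and 16996 to 20932 in E3 untreated libraries. Tyrobp (5932 to 7804 with myelin, 5498 to 6574 untreated), C1qa, Trem2, Fcrls and Csf1r were all well above the filter. P2ry12, a receptor that marks resting microglia in tissue, was low at 2.40 to 5.13 scaled TPM with myelin and 3.62 to 5.17 untreated, and Siglech stayed between 0.184 and 0.647 over all 8 libraries. Markers of other cells moved with the treatment. Fibroblast and pericyte markers summed to 1952 to 2600 scaled TPM in E3 myelin libraries, all below the 2913 to 3654 of E3 untreated libraries. Most of that sum was Acta2 (965 to 1289 with myelin, 1440 to 1755 untreated) and Tagln (460 to 686 and 787 to 985). Rgs5, Kcnj8 and Vtn, also on the list, reached at most 0.614 scaled TPM. Astrocyte markers summed to 1079 to 1204 with myelin and 1187 to 1401 untreated, and neuron markers to 207 to 288 with myelin and 270 to 317 untreated, with Sst at 0 in all 8 libraries. Most of the neuron sum was Npy, at 160 to 228 scaled TPM with myelin and 202 to 250 untreated. Rbfox3, Snap25, Syt1, Gad1, Gad2 and Slc17a7 reached at most 1.34 scaled TPM in any library. Oligodendrocyte and myelin transcripts summed to 130 to 142 with myelin, above the 115 to 126 untreated. Endothelial markers summed to 22.3 to 24.4 with myelin and 24.9 to 30.1 untreated, and border macrophage and monocyte markers to 1213 to 1336 with myelin and 1169.6 to 1509 untreated. Most of the latter sum was Ms4a7 (793 to 876 with myelin, 759 to 904 untreated) and Pf4 (335 to 376 and 320 to 506). Mrc1 reached at most 5.65 scaled TPM, and Lyve1, Cd163 and Ccr2 at most 0.405. The part of these cells in the results was not tested, and in bulk RNA fewer cells of a type and less RNA per cell cannot be told apart.

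**Figure D1:**
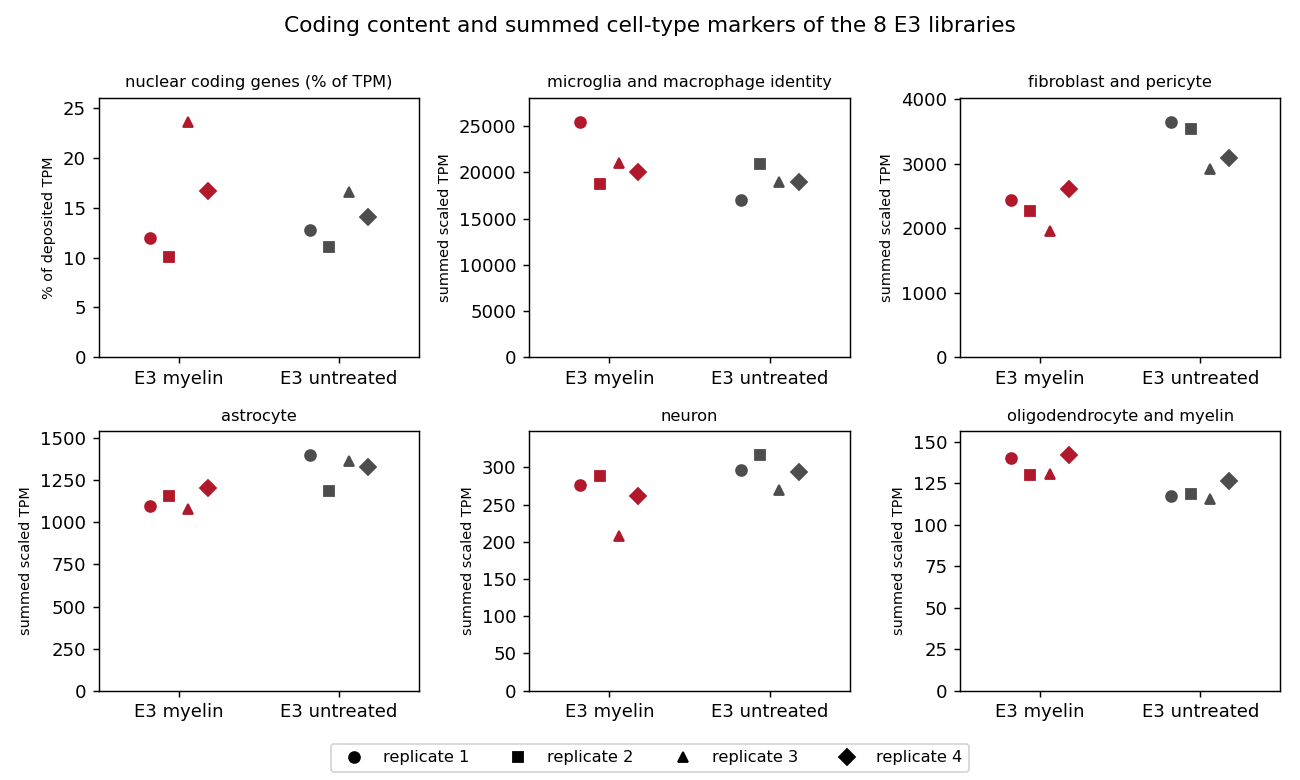
Each panel shows the 8 E3 libraries as points, myelin in red and untreated in grey, with the marker shape giving the replicate. The first panel is the share of deposited TPM in nuclear protein-coding genes (%), where myelin replicate 3 is highest at 23.7%, and the other panels are summed scaled TPM of marker lists, where the fibroblast and pericyte sums do not overlap between the groups.

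Of 9567 genes tested (9451 protein-coding and 116 lincRNA), 955 passed the threshold, which is 9.98%, with 613 higher (6.41%) and 342 lower (3.57%) in E3 myelin libraries. The test was limma on log2(scaled TPM + 1), two-sided, with Benjamini-Hochberg adjusted p at 0.05. The groups did not overlap in 872 of the 955, against 1764 of all genes tested (18.4%). Changes were moderate: the median size among the called genes was 0.55 on the log2 scale, and the median over all genes was 0.028. Scaling to the coding total alone called 802 genes, 416 higher and 386 lower, so the share of called genes that were higher was 64.2% as reported and 51.9% with that scaling. Without myelin replicate 3 the count was 610 (374 higher, 3.96%, and 236 lower, 2.5%), of which 595 were among the 955, and no called gene changed sign. With no overlap in 872 of the 955, leaving out replicate 3 could hardly turn a sign. That replicate was the highest myelin library in 460 of the 613 genes that rose and the lowest in 170 of the 342 that fell. The count was 568 without untreated replicate 1, 373 without untreated replicate 2, 426 without untreated replicate 4 and 1176 without myelin replicate 1. Of 129 called genes among the 174 followed through every alternative, 64 kept the call in every fit without 1 library that tested them. Among these 64, 1700001K19Rik was tested in only 4 of the 8 fits. It reached the filter through the untreated libraries alone, and fell under it when 1 of those was left out. Of the 129, 40 were called in 4 or fewer of the 8 fits without 1 library. The 22 called in only 1 or 2 of them were Igf2r, Sqle, Vegfa, Tyms, Pparg, Ier2, Rab5a, Tnfaip3, Btg2, Sdf2l1, Ccl6, Sox9, Smpdl3a, Mvk, Fdft1, Ctsz, Stmn2, Mthfd2, Gsr, Acsl1, Vps26b and Cfp.

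Abcg1 had the largest rise among the named coding genes. It encodes a pump that loads cholesterol onto lipoproteins, and stands at chromosome 17, 31057675 to 31117988 in mm10 (ENSMUSG00000024030.6). In replicates 1 to 4, the order used for all lists of library values here, it had 38.96, 22.9, 31.7 and 29.9 scaled TPM in E3 myelin libraries, against 5.32, 5.91, 6.35 and 6.37 in E3 untreated libraries. The lowest myelin library lay far above the highest untreated one. The log2 fold change was 2.17 ± 0.15 (standard error) with adjusted p = 3.47e-05, and 2.15 without replicate 3.

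The other 9 genes with the largest rises were Rnf128, Scand1, 0610012G03Rik, Plekhf2, Akirin1, Pdf, Cdk18, Ttc14 and Plbd2, with log2 fold changes between 1.16 and 1.48. Rnf128, a ubiquitin ligase of endosomes, had 107, 162, 248 and 113 scaled TPM in E3 myelin libraries, against 57.5, 49.9, 47.9 and 56.1 in E3 untreated libraries, a log2 fold change of 1.48 ± 0.21. Plekhf2, which binds a phosphoinositide of early endosomes, had 14.02, 18.8, 32.05 and 14.1 scaled TPM in E3 myelin libraries, against 7.88, 7.17, 6.66 and 6.52 in E3 untreated libraries, a change of 1.29 ± 0.21. In both genes replicate 3 was the highest of the myelin libraries and no myelin library overlapped the untreated range; without it the changes were 1.23 and 1.04, both still called. Plbd2, a lysosomal protein of the phospholipase B family, had 145 to 220.4 scaled TPM in E3 myelin libraries, against 56.8 to 98.4 in E3 untreated libraries. Pdf, a mitochondrial peptide deformylase, had 17.3 to 31.1 scaled TPM in E3 myelin libraries, against 7.44 to 12.6 in E3 untreated libraries, and Cdk18, a protein kinase, had 48.7 to 85.7 scaled TPM in E3 myelin libraries, against 22.3 to 27.8 in E3 untreated libraries. All 10 genes kept the call whichever library was left out.

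Il1b, Cxcl10 and Ccl2 were among the 10 genes with the largest falls, and are given with the other inflammatory genes. Among called coding genes whose groups did not overlap, Pcdhgc4 had the largest fall, with 12.8, 14.7, 1.97 and 5.802 scaled TPM in E3 myelin libraries, against 29.5, 25.2, 15.7 and 25.9 in E3 untreated libraries, a log2 fold change of -1.59 ± 0.42. Without replicate 3, its lowest library, the log2 fold change was -1.11 (adjusted p = 0.0316). It was called in 4 of the 8 fits without 1 library, and not without myelin replicate 4 or without untreated replicate 1, 2 or 4 (log2 fold changes of -1.48 to -1.56, highest adjusted p = 0.0871). Pcdhgc4 shares its last exons with the other gamma protocadherins, so its reads may be divided among them, and Pcdhgc3 (-0.17) and Pcdhgc5 (-0.16) were not called. Lce1h and Crct1, which belong to the epidermal differentiation cluster, fell with log2 changes of -1.16 and -1.004, with Crct1 at 117 to 177 scaled TPM in E3 myelin libraries, against 213 to 387 in E3 untreated libraries. 1700001K19Rik, with 3.51, 1.796, 2.53 and 4.28 scaled TPM in E3 myelin libraries, against 8.35, 7.39, 8.15 and 8.96 in E3 untreated libraries, reached the filter of 5 scaled TPM in the untreated group alone, so it had to differ to be tested. The rest were Hspb2 (a small heat shock protein), Gnb4 (a G protein subunit) and the collagen gene Col3a1.

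**Figure D2:**
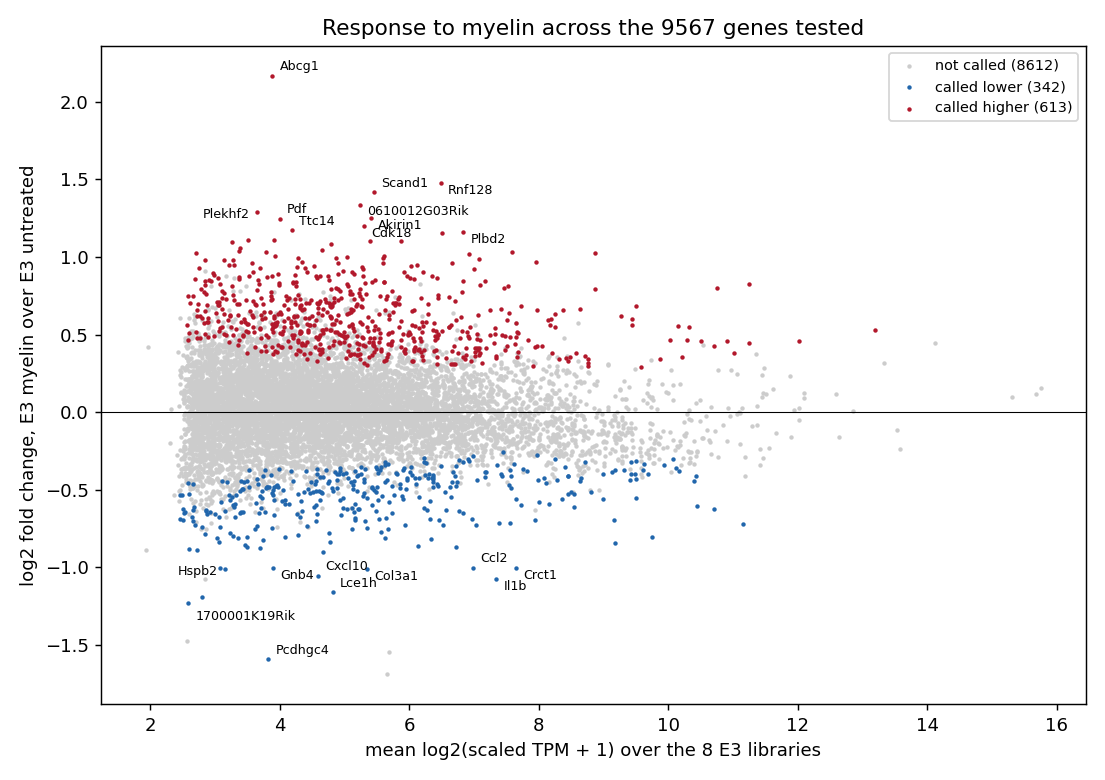
Each point is 1 of the 9567 genes tested, with the mean log2(scaled TPM + 1) over the 8 E3 libraries on the x axis and the log2 fold change of E3 myelin over E3 untreated on the y axis; red points were called higher (613), blue points lower (342) and grey points were not called. Names mark the 10 largest rises and falls among coding genes whose groups do not overlap, and Abcg1 stands above the rest at 2.17.

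Genes that LXR controls and genes of cholesterol export rose in part. Of 22 listed, 20 were tested, 8 rose and 1 fell, with a median log2 fold change of 0.24 against 0.028 for all genes. The members and lists here were chosen with earlier results of these data known, so the counts describe them and nothing more. For this list and those below, the shares over all genes tested were 6.41% higher and 3.57% lower. Abca1, the pump that passes cholesterol to apolipoproteins, had 72.4, 45.1, 83.8 and 61.5 scaled TPM in E3 myelin libraries, against 31.2, 38.2, 38.1 and 34.6 in E3 untreated libraries. All myelin libraries lay above all untreated ones, with replicate 2 the closest, and the log2 fold change was 0.84 ± 0.16 (adjusted p = 0.0103). Mylip, a ubiquitin ligase that LXR induces, had 28.9, 25.9, 32.4 and 26.5 scaled TPM in E3 myelin libraries, against 12.9, 13.97, 17.03 and 15.2 in E3 untreated libraries. The groups stood apart, and the change was 0.90 ± 0.12 (adjusted p = 0.00368). Mertk, a receptor for dying cells, had 25.6 to 39.6 scaled TPM in E3 myelin libraries, against 17.6 to 24.2 in E3 untreated libraries, and Apoc1, a small apolipoprotein, had 32.7 to 50.9 scaled TPM in E3 myelin libraries, against 26.1 to 33.2 in E3 untreated libraries, where the groups overlapped. Their changes were 0.65 and 0.54. Plin2, Tnfaip3 and Smpdl3a rose by 0.46, 0.41 and 0.40. Tnfaip3 and Smpdl3a were not called without replicate 3 (adjusted p = 0.0687 and 0.0831), which left 6 that rose. Ch25h, the enzyme that makes 25-hydroxycholesterol, fell with 21.7, 17.1, 20.3 and 17.9 scaled TPM in E3 myelin libraries, against 24.95, 28.8, 24.6 and 27.5 in E3 untreated libraries, a change of -0.44 ± 0.11 (adjusted p = 0.0252). The receptors themselves, Nr1h3 (0.085) and Nr1h2 (-0.072), were not called, nor were the lipid synthesis targets Srebf1 (-0.030), Scd1 (-0.19) and Scd2 (-0.050), or Lpcat3 (0.095), which remodels membrane phospholipids. The remaining mouse Apoe signal had 111, 149, 255 and 144 scaled TPM in E3 myelin libraries, against 89.8, 117, 111 and 108 in E3 untreated libraries, with a log2 value of 0.56 ± 0.20 and adjusted p = 0.0839, not called.

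**Figure D3:**
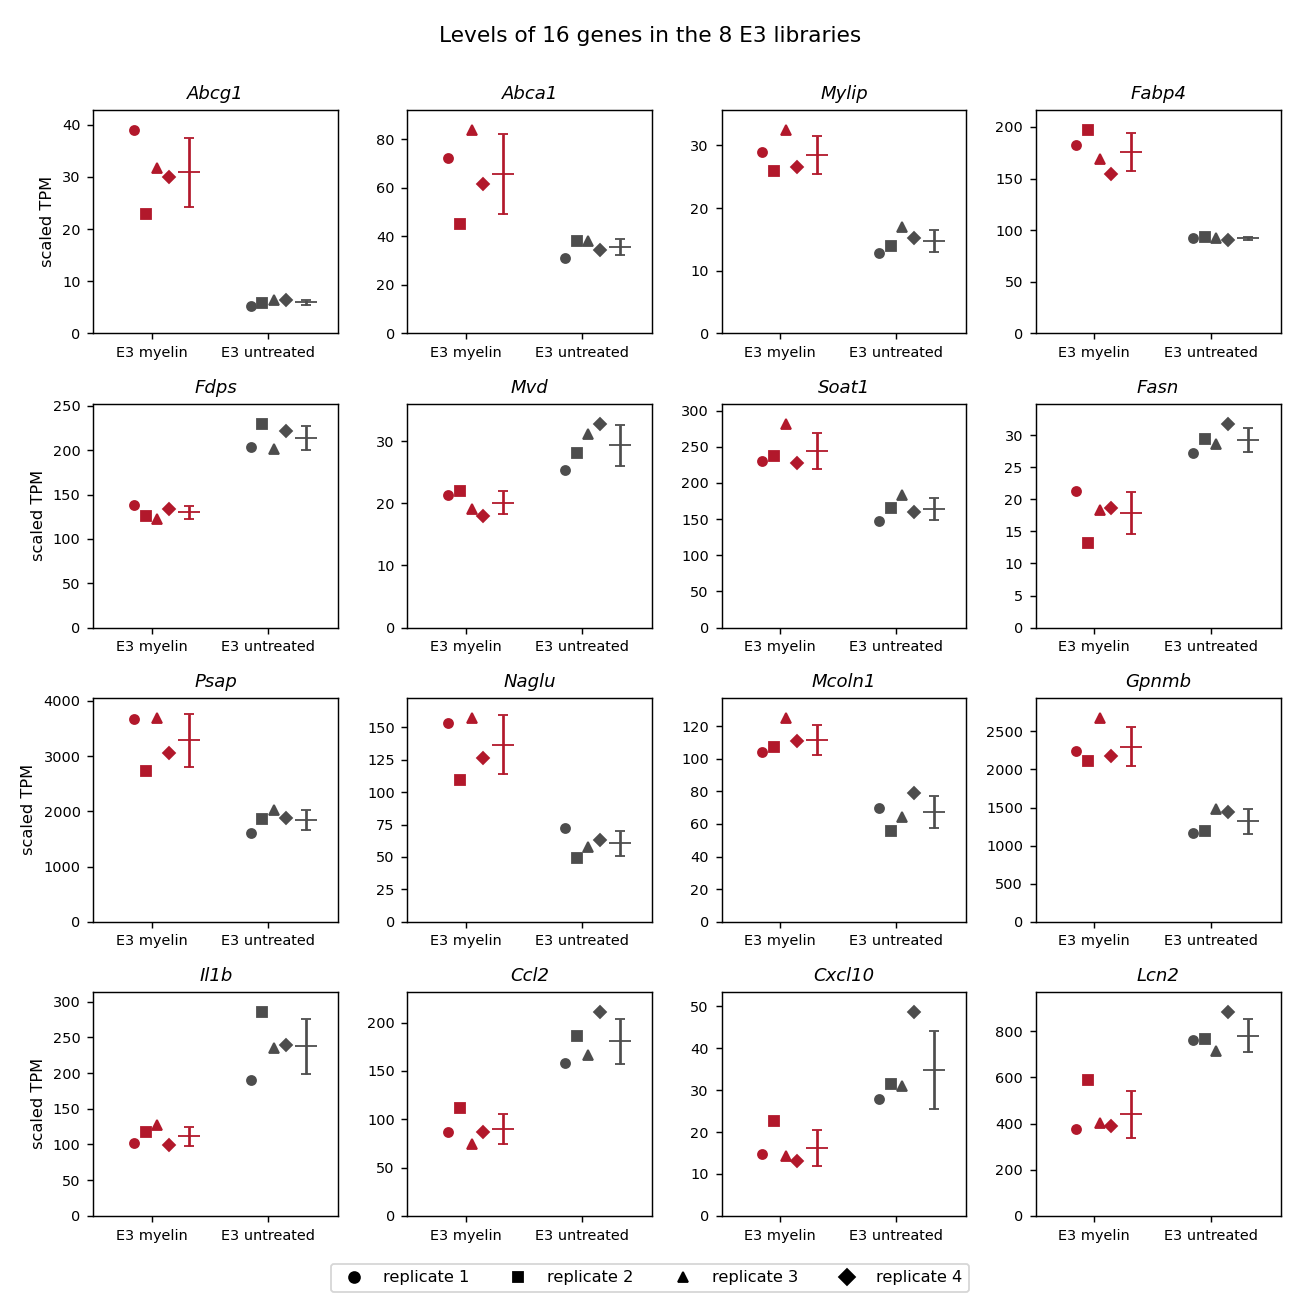
Scaled TPM of 16 genes in the 4 E3 myelin libraries (red, left) and the 4 E3 untreated libraries (grey, right), with the marker shape giving the replicate and the bar the mean ± SD (n = 4). Groups do not overlap in any of the 16 panels, with Abcg1 at 22.9 to 39.0 with myelin and 5.32 to 6.37 untreated.

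Of 19 tested enzymes of cholesterol synthesis (20 listed), 5 fell and 0 rose, with a median of -0.28, and 18 of the 19 log2 values were negative. Fdps, which makes farnesyl pyrophosphate, fell most, with 138, 126, 122 and 134 scaled TPM in E3 myelin libraries, against 203, 229, 201 and 222 in E3 untreated libraries. The groups were far apart, with a log2 fold change of -0.71 ± 0.080 (adjusted p = 0.00252). Mvd, the mevalonate pyrophosphate decarboxylase upstream of it, had 21.2, 21.9, 19.1 and 17.97 scaled TPM in E3 myelin libraries, against 25.4, 28.1, 31.1 and 32.7 in E3 untreated libraries, and fell with a log2 change of -0.52 ± 0.11 (adjusted p = 0.0149). The highest myelin library lay below the lowest untreated library. Mvk (-0.45), Fdft1 (-0.36) and Sqle (-0.34) also fell, all in the middle of the pathway between mevalonate and squalene epoxide. Without replicate 3 Mvk and Fdft1 were not called (adjusted p = 0.0839 and 0.0713), which left 3. Hmgcs1, an early enzyme of the pathway, had 40.01, 50.98, 51.1 and 50.3 scaled TPM in E3 myelin libraries, against 50.8, 41.6, 53.2 and 44.1 in E3 untreated libraries. The groups overlapped and the log2 value was 0.020. The late enzymes Lss (-0.41), Cyp51 (-0.31), Msmo1 (-0.28) and Dhcr7 (-0.065) were not called.

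The promoters of Mvd and Mvk are shown because both genes fell and because genes of this pathway are known to pair SREBP with NF-Y, which binds the CCAAT box. These are the 250 bases before each gene's start in RefSeq's GRCm38.p6, read 5′ to 3′ on the gene's own strand, with the letters CCAAT, or ATTGG where the match is on the other strand, in capitals.
Mvd, chr8:122443423-122443672, minus strand: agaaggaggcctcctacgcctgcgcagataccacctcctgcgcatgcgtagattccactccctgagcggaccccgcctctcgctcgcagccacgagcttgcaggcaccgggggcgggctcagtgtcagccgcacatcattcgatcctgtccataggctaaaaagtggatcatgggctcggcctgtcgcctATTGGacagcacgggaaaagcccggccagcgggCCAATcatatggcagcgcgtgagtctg
Mvk, chr5:114444019-114444268, plus strand: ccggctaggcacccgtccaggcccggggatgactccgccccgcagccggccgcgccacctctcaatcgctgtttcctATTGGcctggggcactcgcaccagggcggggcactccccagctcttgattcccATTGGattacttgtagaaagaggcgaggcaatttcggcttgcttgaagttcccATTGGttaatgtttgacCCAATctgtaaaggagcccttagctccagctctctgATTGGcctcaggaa
Mvd held 2 matches, the nearer starting 27 bases before the gene's start, and Mvk held 5. A window of 300 bases, 250 before and 50 after the start, had a CCAAT on either strand in 14 of the 15 tested enzymes with an entry (93.3%), against 43.3% of 7599 tested genes and 37.4% of all 32851 promoters in the table. Both enzymes that fell and had an entry held it, as did 12 of the 13 that were not called. TCACNCCAC, a form of the sterol regulatory element, was found in 1 of the 15, Hmgcs1, against 1.43% of tested genes. A match describes letters and does not show that a factor bound there.

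Among regulators of sterol balance and uptake, 16 of 20 were tested, with 1 that rose and 2 that fell (median -0.13). Fasn, the fatty acid synthase, had 21.2, 13.3, 18.3 and 18.6 scaled TPM in E3 myelin libraries, against 27.2, 29.4, 28.6 and 31.7 in E3 untreated libraries, without overlap, and a change of -0.70 ± 0.13 (adjusted p = 0.0101). Soat1, which esterifies cholesterol for storage, rose with 231, 237, 281 and 227 scaled TPM in E3 myelin libraries, against 147, 165, 184 and 159.6 in E3 untreated libraries, a change of 0.57 ± 0.096 (adjusted p = 0.00698). Both calls held without replicate 3. Srebf2, which encodes SREBP2, had 53.8 to 62.6 scaled TPM in E3 myelin libraries, against 64.4 to 74.8 in E3 untreated libraries and a log2 value of -0.28 that missed the threshold (adjusted p = 0.0582). Insig1 (-0.027), which holds SREBP in the endoplasmic reticulum, and Scap (-0.073), its escort to the Golgi, were not called.

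Genes of lipid droplets and fatty acid handling rose in 7 of 21 tested members (27 listed) and fell in 0, with a median of 0.24. Fabp4, a fatty acid binding protein of macrophages and fat cells, had 183, 197, 169 and 155 scaled TPM in E3 myelin libraries, against 92.2, 93.3, 91.98 and 90.4 in E3 untreated libraries. The untreated libraries were tightly grouped and every myelin library was well above them, with a log2 fold change of 0.92 ± 0.087 (adjusted p = 0.000744). Its relatives Fabp5 and Fabp3 rose by 0.46 and 0.31, with Fabp5 at 2103 to 2482 scaled TPM in E3 myelin libraries, against 1582 to 1799 in E3 untreated libraries. Lpl, which frees fatty acids from lipoproteins, had 888, 762, 1007 and 771 scaled TPM in E3 myelin libraries, against 483, 485, 718 and 594 in E3 untreated libraries, a change of 0.60 ± 0.14. Plin2, the coat protein of lipid droplets, had 1719, 1610.0, 1864 and 1616 scaled TPM in E3 myelin libraries, against 1150.4, 1212, 1293 and 1299 in E3 untreated libraries, a change of 0.46 ± 0.086. Neither gene overlapped between the groups. Pparg, a nuclear receptor for fatty acids, rose by 0.58, with 6.53 to 10.5 scaled TPM in E3 myelin libraries, against 4.64 to 5.51 in E3 untreated libraries, and Acsl1, which activates fatty acids, by 0.55. Without replicate 3 both missed the threshold (adjusted p = 0.0592 and 0.0992) and 5 members rose. The triglyceride synthesis genes Dgat1 (0.084) and Dgat2 (-0.35), the lipases Pnpla2 (-0.018) and Lipe (-0.35), and Hilpda (0.12) were not called.

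Lysosome genes rose in 28 of 79 members. Over the proton pump, the hydrolases with their activators, and the lysosomal membrane, all 79 listed genes were tested, 1 fell and 73 of the 79 log2 values were positive, with a median of 0.32. The groups did not overlap in 28 of the 29 called genes, against 872 of all 955 called genes. Over all 79 members, called or not, they did not overlap in 36, against 18.4% of all genes tested. Replicate 3 was the highest myelin library in 21 of the 28 genes that rose, and without it 21 rose and 1 fell.

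Subunits of the vacuolar proton pump, which acidifies the lysosome, rose in 7 of 18 members and fell in 0 (median 0.29), and all 18 log2 values were positive. Atp6v0d2, a membrane subunit found in macrophages and osteoclasts, had 11.9, 12.7, 15.3 and 11.2 scaled TPM in E3 myelin libraries, against 5.69, 5.22, 7.36 and 6.24 in E3 untreated libraries. It had the largest change of the pump, 0.95 ± 0.14 (adjusted p = 0.00483), with no overlap. Atp6v1a, the subunit that splits ATP, had 189, 198, 267 and 209 scaled TPM in E3 myelin libraries, against 124, 129, 159 and 131 in E3 untreated libraries, a change of 0.66 ± 0.12 (adjusted p = 0.00825), also with no overlap. Atp6ap2, Atp6v1b2, Atp6v1c1, Atp6ap1 and Atp6v1g1 rose by 0.30 to 0.55. Without replicate 3, the highest library in all 7, Atp6ap1 missed the threshold (adjusted p = 0.0913). The subunits Atp6v1e1, Atp6v1f, Atp6v0d1 and Atp6v0e had log2 values between 0.027 and 0.079 and were not called.

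Of 41 lysosomal hydrolases and activators, 14 rose and 1 fell, with a median of 0.36. Naglu, which removes N-acetylglucosamine from heparan sulfate, had 154, 109, 157 and 126 scaled TPM in E3 myelin libraries, against 72.3, 49.2, 57.99 and 62.96 in E3 untreated libraries. The lowest myelin library was well above the highest untreated library, and the log2 fold change was 1.16 ± 0.14 (adjusted p = 0.00297). Psap, the precursor of the saposins that help degrade sphingolipids, had 3671, 2722, 3685 and 3055 scaled TPM in E3 myelin libraries, against 1606, 1867, 2029 and 1876 in E3 untreated libraries. This abundant transcript did not overlap between the groups and rose by 0.82 ± 0.12 (adjusted p = 0.00483).

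Among enzymes that act on the glycolipids of membranes, Gla, alpha-galactosidase A, had 80.9 to 119 scaled TPM in E3 myelin libraries, against 54.4 to 66.98 in E3 untreated libraries, a change of 0.58 ± 0.12. Hexa, which acts on gangliosides, rose by 0.46. Galc (0.43, adjusted p = 0.0666), which degrades galactosylceramide, the main glycolipid of myelin, had 27.8, 28.5, 43.9 and 31.6 scaled TPM in E3 myelin libraries, against 22.7, 22.5, 26.5 and 23.8 in E3 untreated libraries. Galc was not called, nor were Asah1 (0.42), Arsa (0.056), which acts on sulfatide, and Smpd1 (-0.12). Lipa, the acid lipase that frees cholesterol from its esters, had 373, 348, 482 and 379 scaled TPM in E3 myelin libraries, against 291, 285, 351 and 294 in E3 untreated libraries. Myelin replicate 2 lay just inside the untreated range, and the log2 value was 0.36 ± 0.11 (adjusted p = 0.0542), not called.

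Among proteases, Ctsb, cathepsin B, had 12134, 9727, 12571 and 10736 scaled TPM in E3 myelin libraries, against 6848, 7483, 8468 and 8507 in E3 untreated libraries, a change of 0.53 ± 0.12 (adjusted p = 0.0204) with no overlap. Ctsl (0.42), Ctsz (0.38), Ctsa (0.47), Lgmn (0.55), Tpp1 (0.66) and Dpp7 (0.50) also rose, as did the glucuronidase Gusb (0.34). Ctsz, Gusb and Ctsa missed the threshold without replicate 3, where 10 of the 41 rose. Ctsk, the collagen-degrading cathepsin, fell with 9.17, 11.8, 12.1 and 13.6 scaled TPM in E3 myelin libraries, against 17.9, 15.4, 16.1 and 18.1 in E3 untreated libraries, a change of -0.50 ± 0.13 (adjusted p = 0.0288). Ctsd, a still more abundant protease transcript, had 25662, 16924, 22036 and 19919 scaled TPM in E3 myelin libraries, against 13380.5, 15483, 16048 and 16728 in E3 untreated libraries, without overlap, and at 0.44 ± 0.14 (adjusted p = 0.0668) was not called. Ctss (0.24), Ctsh (0.13) and Ctsc (0.064) were not called, nor was Grn (0.43, adjusted p = 0.0643), progranulin.

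In the lysosomal membrane 7 of 20 members rose and 0 fell (median 0.32). Pip4p1, a phosphatase of membrane phosphoinositides, had 40.3, 60.2, 97.3 and 57.7 scaled TPM in E3 myelin libraries, against 33.6, 24.7, 25.8 and 27.8 in E3 untreated libraries, a change of 1.101 ± 0.21 that was 0.88 without replicate 3, its highest library. Mcoln1, the calcium channel that signals from the lysosome, had 104, 107, 125 and 111 scaled TPM in E3 myelin libraries, against 69.5, 55.4, 64.5 and 79.1 in E3 untreated libraries. The groups did not overlap, and the change was 0.73 ± 0.11 (adjusted p = 0.00502). Gpnmb, a glycoprotein of lipid-laden macrophages, had 2245, 2109, 2673 and 2171 scaled TPM in E3 myelin libraries, against 1169.9, 1186, 1478 and 1447 in E3 untreated libraries, again apart, with a change of 0.80 ± 0.11 (adjusted p = 0.00447). Lamp1 (0.63), Scarb2 (0.41) and Cln3 (0.36) rose too, the last pair not without replicate 3. Npc1 and Npc2, which hand cholesterol out of the lysosome, were measured too. Npc1 had 59.9, 50.1, 51.1 and 51.8 scaled TPM in E3 myelin libraries, against 40.7, 45.9, 47.3 and 46.4 in E3 untreated libraries, and Npc2 had 304, 248, 258 and 246 scaled TPM in E3 myelin libraries, against 211, 247, 238 and 222 in E3 untreated libraries. Their log2 values were 0.23 ± 0.092 and 0.20 ± 0.091, and neither was called (adjusted p = 0.122 and 0.175).

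The factors known to drive lysosome genes were not called. Tfeb had 21.6 to 35.8 scaled TPM in E3 myelin libraries, against 18.4 to 26.1 in E3 untreated libraries, a log2 value of 0.38 (adjusted p = 0.128), Tfe3 had 0.064 and Mitf 0.048. Of 16 tested genes for these factors and for nutrient signalling at the lysosome (18 listed), 3 rose and 0 fell. Rragc, a GTPase that brings mTORC1 and TFEB to the lysosome, had 99.6, 117, 155 and 96.9 scaled TPM in E3 myelin libraries, against 71.5, 57.3, 59.2 and 63.3 in E3 untreated libraries, a change of 0.87 ± 0.14 (adjusted p = 0.00603). Fnip2, a partner of folliculin that acts on that GTPase, had 33.1, 28.5, 35.97 and 32.5 scaled TPM in E3 myelin libraries, against 16.2, 18.8, 20.1 and 22.02 in E3 untreated libraries, a change of 0.73 ± 0.11 (adjusted p = 0.00603). Both were apart between the groups. Uvrag rose by 0.49 (adjusted p = 0.0222) and was not called without replicate 3. Sqstm1 (0.10), Map1lc3b (-0.11) and Gabarapl1 (-0.020), cargo and membrane proteins of autophagy, were not called.

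TFEB and its relatives are known to bind an E-box, and 4 promoters of genes that rose are shown for it. They are again the 250 bases before the start from RefSeq's GRCm38.p6, 5′ to 3′ on the gene's strand, with TCACGTGA in capitals.
Mcoln1, chr8:3500269-3500518, plus strand: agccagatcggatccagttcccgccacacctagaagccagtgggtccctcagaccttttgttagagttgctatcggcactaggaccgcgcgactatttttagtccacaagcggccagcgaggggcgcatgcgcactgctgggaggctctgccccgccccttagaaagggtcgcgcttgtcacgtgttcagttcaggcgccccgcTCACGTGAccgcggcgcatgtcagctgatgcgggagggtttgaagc
Pip4p1, chr14:50930850-50931099, minus strand: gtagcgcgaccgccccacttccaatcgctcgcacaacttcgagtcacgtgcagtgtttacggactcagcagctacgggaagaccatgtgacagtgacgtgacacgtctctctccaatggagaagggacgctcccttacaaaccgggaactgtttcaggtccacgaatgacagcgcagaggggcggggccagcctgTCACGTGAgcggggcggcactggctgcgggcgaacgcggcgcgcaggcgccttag
Atp6v1a, chr16:44139260-44139509, minus strand: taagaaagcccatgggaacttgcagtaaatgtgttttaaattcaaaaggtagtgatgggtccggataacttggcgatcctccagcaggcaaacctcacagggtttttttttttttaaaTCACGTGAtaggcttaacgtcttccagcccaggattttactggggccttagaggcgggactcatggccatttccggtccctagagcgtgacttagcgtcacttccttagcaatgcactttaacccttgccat
Gla, chrX:134601006-134601255, minus strand: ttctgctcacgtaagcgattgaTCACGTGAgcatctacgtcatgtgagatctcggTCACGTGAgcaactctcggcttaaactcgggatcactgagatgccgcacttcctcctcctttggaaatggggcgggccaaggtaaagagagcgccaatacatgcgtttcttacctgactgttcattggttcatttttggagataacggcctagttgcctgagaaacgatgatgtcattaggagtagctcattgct
The match began 46 bases before the start in Mcoln1, 55 in Pip4p1 and 132 in Atp6v1a, and Gla held 2 matches. Of the 79 lysosome genes 64 had an entry. Among those, CACGTG was present in the window of 300 bases in 11 of the 20 genes that rose (55%) and in 9 of the 43 that were not called (20.9%), against 12.2% of tested genes and 7.15% of all promoters. TCACGTGA, which contains CACGTG and reads the same on both strands, was present in 7 of the 20 that rose (35%) and 3 of the 43 not called (6.98%), against 2.38% of tested genes and 0.974% of all promoters. The 7 genes were Atp6v1a, Ctsa, Gla, Dpp7, Mcoln1, Cln3 and Pip4p1. Without replicate 3, 14 of the genes with an entry rose, of which 9 held CACGTG (64.3%) and 5 TCACGTGA (35.7%). These shares describe letters and were not tested, and they give nothing on whether a factor bound.

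Genes of endosomes and of the retromer, which sort cargo on its way to the lysosome, rose in 9 of 32 members and fell in 0 (median 0.23), but in 3 of them without replicate 3. Those 3 were Eea1, Rabep1 and Snx5. Eea1, a tether of early endosomes, had 38.1, 45.9, 41.3 and 34.5 scaled TPM in E3 myelin libraries, against 26.3, 26.2, 22.99 and 25.9 in E3 untreated libraries, a change of 0.63 ± 0.11 (adjusted p = 0.00698). Rabep1, a partner of RAB5, had 31.5, 39.7, 31.8 and 30.3 scaled TPM in E3 myelin libraries, against 26.5, 20.6, 19.3 and 19.7 in E3 untreated libraries, a change of 0.61 ± 0.12 (adjusted p = 0.0135). Neither gene overlapped. Rab5a itself had 16.02, 30.6, 50.3 and 22.3 scaled TPM in E3 myelin libraries, against 17.3, 9.88, 12.5 and 15.2 in E3 untreated libraries, where myelin replicate 1 lay inside the untreated range; its change was 0.97 ± 0.28, and 0.68 without replicate 3 (adjusted p = 0.0754). The retromer subunits Vps26a (0.41) and Vps26b (0.52) rose and Vps35 (0.42) and Vps29 (0.088) were not called.

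**Figure D4:**
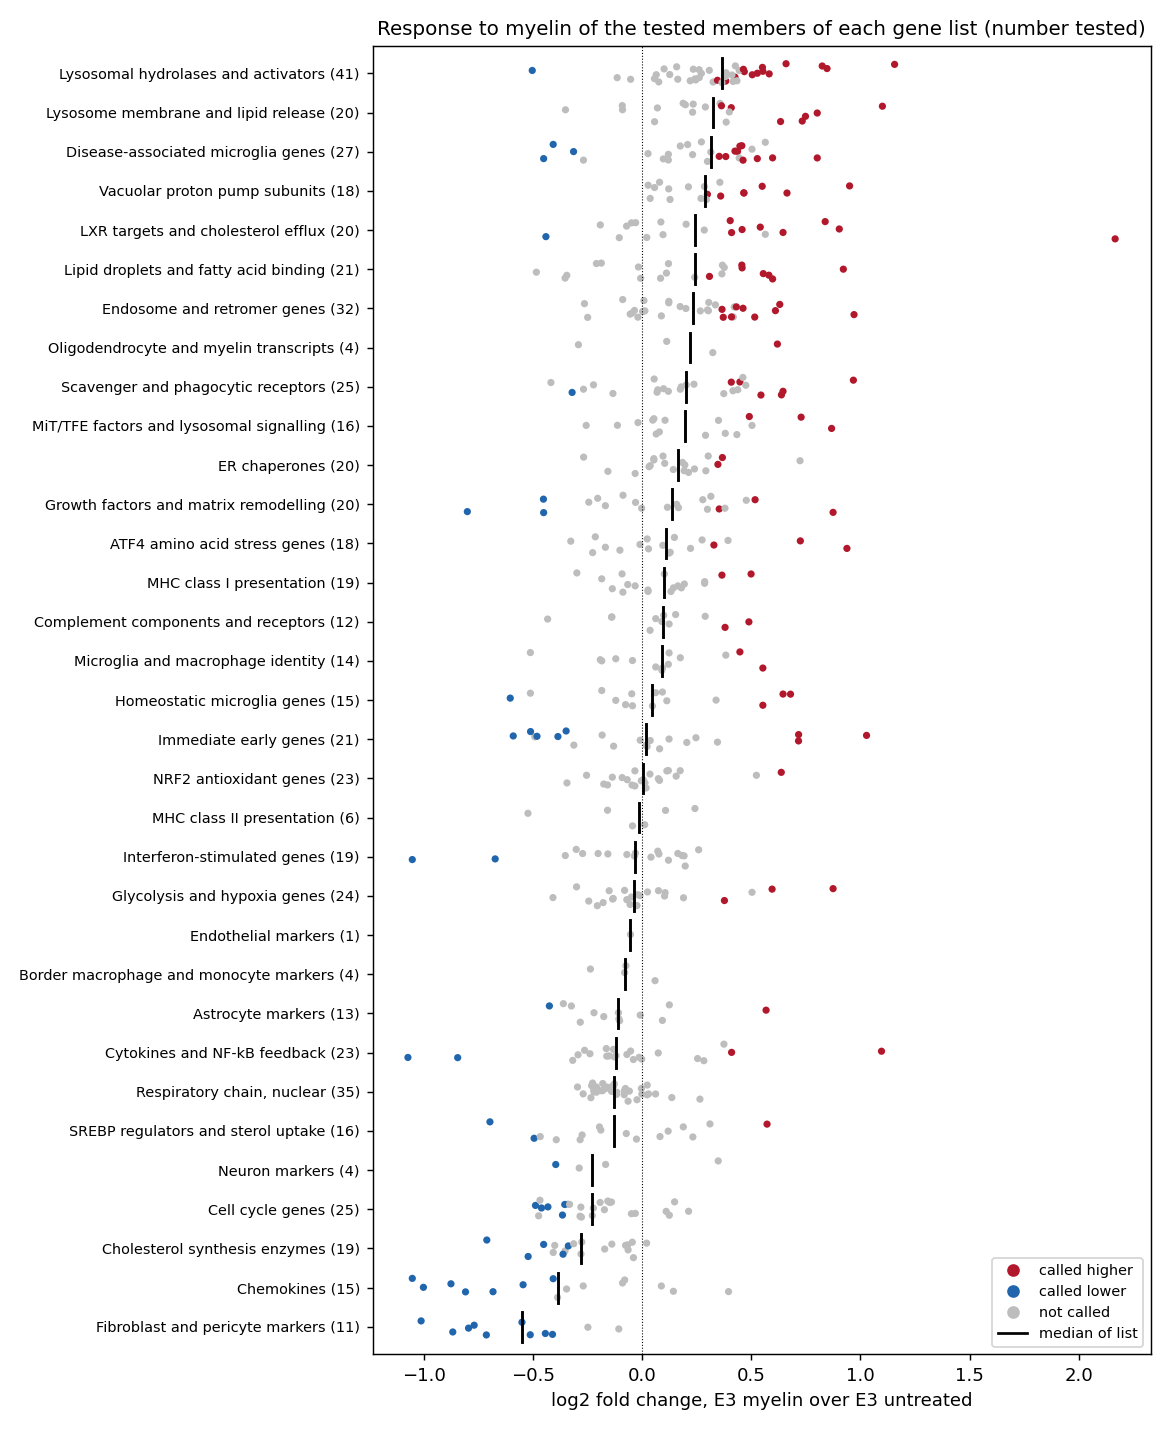
Log2 fold change of E3 myelin over E3 untreated for every tested member of 33 gene lists, ordered by the median of the list (black bar), with the number tested in brackets. Red points were called higher, blue points lower and grey points not called; the lysosomal hydrolases stand at the top with a median of 0.36 and the fibroblast and pericyte markers at the bottom with -0.55.

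Receptors for debris and lipoproteins rose in 6 of 25 tested members (30 listed) and fell in 1, with a median of 0.20. Gas6, the bridge that links dying cells and myelin to MERTK and AXL, had 373, 308, 376 and 334 scaled TPM in E3 myelin libraries, against 196, 171, 155 and 187 in E3 untreated libraries. The groups were far apart, with a change of 0.97 ± 0.098 (adjusted p = 0.00104). Mertk rose, as given above, while Axl, another receptor for Gas6, had 148, 105, 95.3 and 104 scaled TPM in E3 myelin libraries, against 144, 162, 118 and 119 in E3 untreated libraries and a log2 value of -0.27, not called. Cd36, a scavenger receptor for lipids, had 194, 229, 314 and 208 scaled TPM in E3 myelin libraries, against 138, 120.0, 196 and 150.2 in E3 untreated libraries, where myelin replicate 1 lay just inside the untreated range; its change of 0.64 ± 0.16 was not called without replicate 3 (adjusted p = 0.0552). Msr1, the class A scavenger receptor, had 168 to 249 scaled TPM in E3 myelin libraries, against 117 to 154 in E3 untreated libraries and a change of 0.54 ± 0.13. Cd68 (0.45) and Scarb2 (0.41) rose as well. Itgav, an integrin subunit that binds apoptotic cells through Mfge8, fell, with a log2 change of -0.32. Lrp1 (0.12), Marco (0.24) and the Fc receptors Fcgr1 (0.054), Fcgr2b (0.068), Fcgr3 (-0.13) and Fcgr4 (0.18) were not called. Without replicate 3, 4 members rose and 1 fell.

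Disease-associated microglia genes, a set that rises around plaques and demyelinated lesions in mice, rose in 10 of 27 tested members and fell in 3, with a median of 0.31. Beside Gpnmb, Lpl, Ctsb, Fabp5, Cd68, Ctsl and Ctsz, already described, these were Lgals3, Cst7 and Igf1. Lgals3, galectin-3, had 5017, 5196, 4611 and 4701 scaled TPM in E3 myelin libraries, against 3313, 3534, 3482 and 3850.5 in E3 untreated libraries, with the groups apart and a change of 0.46 ± 0.092 (adjusted p = 0.0128). Cst7, an inhibitor of cathepsins, had 49.2, 39.7, 40.9 and 41.3 scaled TPM in E3 myelin libraries, against 28.3, 34.1, 29.9 and 33.1 in E3 untreated libraries, a change of 0.44 ± 0.10. Igf1, a growth factor that microglia give to myelinating cells, had 1353, 1399, 1298 and 1323 scaled TPM in E3 myelin libraries, against 968, 1047, 1113 and 1083 in E3 untreated libraries, a change of 0.35 ± 0.080. Neither gene overlapped between the groups. Trem2, the lipid receptor that this state depends on in mice, had 1549, 979, 1055 and 1098 scaled TPM in E3 myelin libraries, against 907, 1152, 1012 and 1023 in E3 untreated libraries, where the groups overlapped and the log2 value was 0.17 ± 0.13 (adjusted p = 0.416). Spp1 (0.31), Tyrobp (0.12), Cd9 (0.21) and the remaining mouse Apoe signal were not called. Human APOE, which takes the place of mouse Apoe in E3, was not analysed. Csf1 (-0.45), Ccl6 (-0.41) and Cd52 (-0.32) fell, although the list holds them as genes that rise in that state. Without replicate 3, 9 rose and 2 fell. Clec7a, also on the list, was left out of the test for its gene type and not for its level. It had 126, 115, 167 and 118 scaled TPM in E3 myelin libraries, against 78.5, 88.6, 103 and 104 in E3 untreated libraries, without overlap.

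Homeostatic genes moved in both directions, with 3 of 15 tested members (20 listed) higher and 1 lower. Tgfbr1, a receptor for TGF-β, which maintains microglia, had 31.8, 31.9, 46.4 and 29.2 scaled TPM in E3 myelin libraries, against 18.7, 19.9, 25.5 and 20.5 in E3 untreated libraries, a change of 0.68 ± 0.15 that was 0.54 without replicate 3, the library that stood out. Mertk also rose. Sparc, which fibroblasts make too, fell, with a log2 change of -0.61. Without replicate 3, 2 rose and 1 fell. Tmem119, a marker of resident microglia, had 46.7, 23.2, 39.5 and 41.02 scaled TPM in E3 myelin libraries, against 49.4, 58.6, 49.1 and 53.2 in E3 untreated libraries. All myelin libraries were below all untreated libraries, but with a log2 value of -0.51 ± 0.17 it was not called (adjusted p = 0.0774). Cx3cr1 (-0.19), Csf1r (-0.12) and Gpr34 (-0.077) were not called.

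Of 15 tested chemokine genes (20 listed), 7 fell and 0 rose, with a median of -0.39, and without replicate 3 it was 5, Ccl6 and Ccl12 no longer called. Ccl2, which draws monocytes through CCR2, had 86.9, 111, 74.3 and 87.2 scaled TPM in E3 myelin libraries, against 158, 187, 166 and 211 in E3 untreated libraries. The highest myelin library lay well below the lowest untreated library, and the log2 fold change was -1.003 ± 0.13 (adjusted p = 0.00368). Its neighbours on chromosome 11, Ccl7 and Ccl12, which act on the same receptor, fell, with log2 changes of -0.81 and -0.88, with Ccl7 at 31.2 to 40.7 scaled TPM in E3 myelin libraries, against 56.8 to 76.5 in E3 untreated libraries. Cxcl10, an interferon-induced chemokine for T cells, had 14.7, 22.7, 14.3 and 13.03 scaled TPM in E3 myelin libraries, against 27.9, 31.5, 30.95 and 48.5 in E3 untreated libraries. Myelin replicate 2 was the highest of its group and still below all untreated libraries, and the change was -1.05 ± 0.19 (adjusted p = 0.00879). Cxcl1, which draws neutrophils, had 33.01 to 50.5 scaled TPM in E3 myelin libraries, against 46.9 to 77.3 in E3 untreated libraries, with overlapping groups and a change of -0.68 ± 0.16. Ccl9 (-0.55) and Ccl6 (-0.41) also fell. Ccl3 (-0.35), Ccl4 (-0.27), Ccl5 (-0.090) and Cxcl2 (-0.39) were not called.

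The promoter of Cxcl10 is shown as the example for NF-κB, with a κB site in capitals in the 250 bases before the start from RefSeq's GRCm38.p6.
Cxcl10, chr5:92348890-92349139, minus strand: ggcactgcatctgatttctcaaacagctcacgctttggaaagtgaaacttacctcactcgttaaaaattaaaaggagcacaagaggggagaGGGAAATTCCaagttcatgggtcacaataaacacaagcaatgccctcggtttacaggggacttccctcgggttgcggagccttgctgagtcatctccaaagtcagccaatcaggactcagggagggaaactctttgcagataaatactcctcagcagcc
The match began 159 bases before the start. It was found on either strand in the window of 300 bases of 3 of the 10 chemokine genes with an entry, Cxcl1, Cxcl10 and Cxcl2, against 1.76% of tested genes and 1.47% of all promoters. Of the 5 with an entry that fell, 2 held it (Cxcl1 and Cxcl10), and of the 5 not called 1 did (Cxcl2). These matches too describe letters, and whether a factor bound there was not tested.

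Il1b, a main inflammatory cytokine of microglia, had 103, 117, 128 and 98.7 scaled TPM in E3 myelin libraries, against 189.8, 285, 235 and 239 in E3 untreated libraries. Every myelin library was far below every untreated library, with a log2 fold change of -1.07 ± 0.12 (adjusted p = 0.00252). Lcn2, an iron-binding protein of inflammation made by microglia and astrocytes, had 377, 591, 401 and 392 scaled TPM in E3 myelin libraries, against 762, 766, 714 and 882 in E3 untreated libraries. Myelin replicate 2 was high within its group but still below the untreated libraries, and the change was -0.85 ± 0.13 (adjusted p = 0.00603). Il18bp, a secreted trap for interleukin 18, rose with 12.7, 10.8, 13.98 and 15.2 scaled TPM in E3 myelin libraries, against 4.29, 5.82, 6.11 and 6.25 in E3 untreated libraries, a change of 1.097 ± 0.14 (adjusted p = 0.00368), and Tnfaip3, a brake on NF-κB, rose by 0.41. Of 23 tested cytokine and NF-κB genes (30 listed) these were the 4 called, 2 in each direction, with a median of -0.12. Without replicate 3, 1 rose and 2 fell. Tnf had 83.2, 65.2, 72.2 and 69.9 scaled TPM in E3 myelin libraries, against 63.4, 100.3, 77.8 and 77.5 in E3 untreated libraries, with overlapping groups and a log2 value of -0.12 ± 0.13 (adjusted p = 0.568). Nfkbia (-0.26), Nfkb1 (-0.29), Ptgs2 (-0.16) and Il1rn (0.073) were not called. Interferon-stimulated genes gave 0 that rose and 2 that fell of 19 tested (34 listed), with a median of -0.031. These were Cxcl10 and Gbp2 (-0.67), while Ifit3 (-0.35), Isg15 (-0.27) and Irf7 (0.12) were not called.

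Immediate early genes, which signals switch on within minutes, divided. Of 21 tested, 3 rose and 5 fell, and without replicate 3, 3 rose and 3 fell. Dusp1, a phosphatase that shuts off MAP kinases, had 508, 657, 1022 and 580.5 scaled TPM in E3 myelin libraries, against 378, 311, 297 and 326 in E3 untreated libraries. All myelin libraries were above the untreated ones, and the change of 1.03 ± 0.18 was 0.82 without replicate 3, by far its highest library. Jun, a part of the transcription factor AP-1, had 156, 121, 131 and 128 scaled TPM in E3 myelin libraries, against 95.6, 80.7, 74.7 and 74.2 in E3 untreated libraries, without overlap, a change of 0.72 ± 0.11 (adjusted p = 0.00493). Jund rose by 0.72. Ier3, an early gene of NF-κB, had 218, 263, 215 and 232 scaled TPM in E3 myelin libraries, against 317, 391, 349 and 343 in E3 untreated libraries, also without overlap, and fell with a log2 change of -0.59 ± 0.093 (adjusted p = 0.00603). Fosl1 (-0.51), Nr4a1 (-0.48), Ier2 (-0.39) and Btg2 (-0.35) fell, while Fos (0.022), Egr1 (-0.0096) and Myc (-0.13) were not called.

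Of 18 tested ATF4 genes 3 rose: Cebpg, with 48.6, 52.3, 62.9 and 48.02 scaled TPM in E3 myelin libraries, against 34.1, 26.6, 24.4 and 23.9 in E3 untreated libraries and a change of 0.94 ± 0.13 (adjusted p = 0.00432), Trib3 (0.72) and Mthfd2 (0.33, not without replicate 3, adjusted p = 0.0682). Atf4 (0.022), Asns (0.15) and Ddit3 (0.27) were not called. Of 20 chaperones of the endoplasmic reticulum and their regulators 2 rose, Xbp1 (0.37) and Sdf2l1 (0.35), which were called in 6 and 1 of the 8 fits without 1 library, and Hspa5 (0.18) was not called. Of 23 NRF2 genes only Gsr, glutathione reductase, was called (0.64), and not without replicate 3 (adjusted p = 0.097), while Hmox1 (0.079) was not. Among 24 glycolysis and hypoxia genes Vegfa (0.87), Hk3 (0.60) and Pfkfb3 (0.38) rose and 21, Hk2 (-0.41) and Ldha (-0.18) included, were not called. Vegfa overlapped between the groups and was not called without replicate 3 (adjusted p = 0.0854). Of 35 nuclear genes of the respiratory chain limma called 0 (median -0.13, 29 negative), with 6 at an unadjusted p under 0.05 and 1 called lower with the coding total alone. Beside these counts, 6.41% of all genes tested were called higher.

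Erap1 (0.50) and H2-T23 (0.37) rose among 19 MHC class I genes, whose near-identical H2-Q members may exchange reads, and limma called 0 of 6 tested MHC class II genes (13 listed, 2 at an unadjusted p under 0.05), with Cd74 at -0.16 and H2-Ab1 at -0.52. Cfp, which stabilises the alternative pathway of complement, and C3ar1, a receptor for C3a, rose by 0.49 and 0.38 among 12 tested complement genes (16 listed), and C3 (-0.14) and C1qa (0.12) were not called. Without replicate 3 none of these 4 genes passed, at adjusted p = 0.0718 for Erap1, 0.0558 for H2-T23, 0.0966 for Cfp and 0.0684 for C3ar1. With all libraries, 6.41% of all genes tested were called higher.

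Cell cycle genes fell in 5 of 25 tested members (30 listed) and rose in 0, with a median of -0.23. Cdc20, which starts the exit from mitosis, had 36.3, 31.3, 33.7 and 40.02 scaled TPM in E3 myelin libraries, against 51.2, 50.5, 47.2 and 50.3 in E3 untreated libraries, without overlap, a change of -0.49 ± 0.095 (adjusted p = 0.0115). Birc5 (-0.46), Ube2c (-0.43), Aurka (-0.37) and Tyms (-0.36) also fell, the first 3 of them mitotic like Cdc20 and Tyms an enzyme for DNA precursors. Without replicate 3 the count was 4, Tyms no longer called. The replication genes Mcm2 (-0.032), Mcm6 (0.21) and Pcna (0.12) were not called, nor was Top2a (-0.34). Transcripts of the fibroblast and pericyte list were also present, with the sums given above, and their part in these counts was not tested.

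Genes of the fibroblast and pericyte list fell in 9 of 11 tested members (16 listed) and rose in 0, the lowest median of any list at -0.55. Col3a1 had 25.9, 19.7, 31.6 and 36.2 scaled TPM in E3 myelin libraries, against 76.3, 58.2, 36.6 and 64.04 in E3 untreated libraries, a change of -1.01 ± 0.22, with untreated replicate 3 close to the myelin range and no overlap. Col1a2 had 83.7, 62.5, 69.6 and 97.03 scaled TPM in E3 myelin libraries, against 164, 158, 109.6 and 141 in E3 untreated libraries, a change of -0.87 ± 0.15 (adjusted p = 0.00772), and the contractile genes Acta2 and Tagln fell, with log2 changes of -0.44 and -0.55, with Acta2 at 965 to 1289 scaled TPM in E3 myelin libraries, against 1440.1 to 1755 in E3 untreated libraries. Fn1 (-0.41), Col1a1 (-0.71), Col5a1 (-0.77), Col6a1 (-0.51) and Dcn (-0.80) fell, and Pdgfrb (-0.25) and Igfbp5 (-0.11) were not called. Without replicate 3, 8 fell, and Col6a1 was at adjusted p = 0.0755. Timp1, an inhibitor of matrix proteases that many cell types make, had 607, 702, 573 and 728 scaled TPM in E3 myelin libraries, against 1289, 1267, 847 and 1191 in E3 untreated libraries, a change of -0.80 ± 0.13 (adjusted p = 0.00698). It belongs to a list of 20 tested growth factor and matrix remodelling genes (24 listed), of which 3 rose (Vegfa, Igf2r and Igf1) and 3 fell (Csf1, Hbegf and Timp1), and without replicate 3, 1 rose and 3 fell. Ccl2, Lcn2 and Timp1 can come from fibroblasts and astrocytes as well as microglia. The values of the cell markers stand beside them here, and their part was not tested.

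Mbp, the major basic protein of myelin, had 28.5, 26.7, 23.2 and 30.2 scaled TPM in E3 myelin libraries, against 12.9, 17.6, 21.1 and 18.3 in E3 untreated libraries, a change of 0.62 ± 0.14 (adjusted p = 0.0202) without overlap. Mog, a myelin surface glycoprotein, lay at or near 0 in every library. Cnp (0.11) and Olig1 (0.32) were not called. Sox9, a factor of astrocytes and their precursors, rose by 0.57 and Clu, a carrier protein of astrocytes, fell (-0.43), while Gfap (-0.18) and Aqp4 (-0.11) were not called. These were the 2 calls among 13 tested astrocyte markers. Stmn2, a neuronal protein, was the 1 of 4 tested neuron markers that fell (-0.40). Sox9 and Stmn2 were not called without replicate 3 (adjusted p = 0.0542 and 0.1). Limma called 0 of 4 tested border macrophage and monocyte markers and did not call Flt1, the endothelial marker tested, with 0 at an unadjusted p under 0.05. Of 14 tested microglia and macrophage identity genes 2 rose, among them Cd68.

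The same contrast in the other genotypes shows where the E3 response stands. Each difference was tested in limma on the 18 libraries of the 2 genotypes, as the E3 myelin response minus the other genotype's. The levels given for another genotype come from a scaling among its own 10 libraries, so they show change within that genotype and only roughly compare with E3 levels. Against E4, 0 of 10140 genes passed (0%), with 543 at an unadjusted p under 0.05, and the count was 0 under every alternative run. E4 microglia alone had 1256 called genes of 9818. The absence of calls does not show that the responses were alike, and the intervals are given: for Abcg1 the difference was -0.21 (95% interval -0.61 to 0.19, adjusted p = 0.982), with E4 means of 46.3 ± 5.39 scaled TPM after myelin and 8.202 ± 1.41 untreated (SD, n = 5 each). For Gpnmb it was -0.41 (95% interval -0.73 to -0.10, adjusted p = 0.804) and for Jun 0.56 (95% interval 0.21 to 0.91, adjusted p = 0.682).

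Against WT, 246 of 10075 genes passed (2.44%), 160 with a higher response in E3 (1.59%) and 86 with a lower one (0.854%), and 2384 had an unadjusted p under 0.05. WT microglia alone had 0 called genes of 9349 by limma, with 1498 at an unadjusted p under 0.05. Single libraries moved the count of 246. It was 9 without E3 myelin replicate 3, 125 without E3 myelin replicate 4, and 5, 17, 468 and 8 without E3 untreated replicates 1 to 4. It was 13, 71, 430 and 821 without WT myelin replicates 1, 3, 4 and 5, and 38, 101, 29 and 8 without WT untreated replicates 2 to 5. The genes that follow are the 5 with the smallest p in each direction. Abcg1, Fnip2, Mylip, Arhgap24 and Krt19 passed whichever of the 18 libraries was left out. Psap, Hspb2, Fdps, Bgn and Col5a1 passed in 17 of 18, 16 of 18, 13 of 18, 13 of 18 and 12 of 18 of those fits.

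Abcg1 averaged 7.502 ± 1.27 scaled TPM in WT myelin libraries and 6.04 ± 0.464 in WT untreated libraries (SD, n = 5 each), and the difference of the responses was 1.90 (95% interval 1.51 to 2.29, adjusted p = 3.76e-05). For Mylip the WT means were 17.6 ± 1.07 after myelin and 16.95 ± 1.501 untreated, and the difference was 0.85 (95% interval 0.57 to 1.13, adjusted p = 0.00889). For Psap the WT means were 2479.8 ± 235 after myelin and 2472 ± 166 untreated, and the difference was 0.82 (95% interval 0.54 to 1.11, adjusted p = 0.0144). Fnip2 and Arhgap24, a regulator of small GTPases, had differences of 0.97 and 0.98. Fdps, lower in E3 after myelin, had WT means of 177 ± 18.2 after myelin and 192 ± 9.85 untreated, and a difference of -0.59 (95% interval -0.82 to -0.35, adjusted p = 0.0257). The other genes with a lower response in E3 were Krt19 (-1.22), a keratin, Hspb2 (-1.48), and the matrix genes Bgn (-0.77) and Col5a1 (-1.11). Bgn, biglycan, averaged 287 ± 38.1 after myelin and 270.0 ± 20.5 untreated in WT, while in E3 it had 95.7, 91.3, 93.2 and 113 scaled TPM in E3 myelin libraries, against 172, 152, 142 and 169.7 in E3 untreated libraries.

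Against KO, 320 of 10079 genes passed (3.17%), 230 with a higher response in E3 (2.28%) and 90 with a lower one (0.893%), and 1795 had an unadjusted p under 0.05. KO microglia alone had 334 called genes of 9156. The count was 180 without E3 myelin replicate 3, 179 and 191 without E3 untreated replicates 2 and 4, 213 without KO myelin replicate 2 and 187 without KO untreated replicate 1. Abcg1 averaged 15.7 ± 2.61 after myelin and 11.9 ± 0.512 untreated in KO (SD, n = 5 each), with a difference of 1.80 (95% interval 1.43 to 2.17, adjusted p = 4.11e-05). Fabp4 had KO means of 174 ± 16.4 after myelin and 174 ± 10.3 untreated, and a difference of 0.92 (95% interval 0.70 to 1.14, adjusted p = 0.000174). Rnf128 and Jun, which rose in E3, had KO responses of -0.25 ± 0.062 and -0.36 ± 0.078 and differences of 1.71 and 1.07. Nog, noggin, an inhibitor of BMP, had E3 values of 8.39, 7.64, 10.6 and 7.99 after myelin and 4.94, 3.401, 5.02 and 4.55 untreated, KO means of 1.82 ± 0.318 after myelin and 3.26 ± 0.493 untreated, and a difference of 1.40. Nog reached the filter mainly through the E3 myelin libraries, where it was high, and fell under it in the 4 fits that left 1 of them out, so its difference is a description.

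Genes with a lower response in E3 than in KO were Fdps (-0.75), Slamf9 (-1.05), Fars2 (-0.73), Ccl2 (-1.08) and Tuba1b (-0.54). Ccl2 averaged 71.2 ± 8.72 after myelin and 68.6 ± 11.4 untreated in KO, and the difference was -1.08 (95% interval -1.46 to -0.69, adjusted p = 0.00353). Slamf9, a surface receptor of macrophages, fell in E3 with 26.2, 20.4, 22.5 and 27.8 scaled TPM in E3 myelin libraries, against 34.6, 37.4, 34.3 and 38.3 in E3 untreated libraries, and averaged 41.4 ± 4.34 after myelin and 29.7 ± 4.51 untreated in KO. Fars2, a mitochondrial tRNA synthetase, and Tuba1b, a tubulin, were not called in E3 (adjusted p = 0.0925 and 0.25). In KO alone limma called both higher, Fars2 with a response of 0.43 ± 0.074 (adjusted p = 0.0104) and Tuba1b with 0.39 ± 0.062 (adjusted p = 0.00885). The 10 genes named against KO kept the call whichever library that could be left out was left out.

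The comparisons with WT and KO share the E3 libraries, so their values are given side by side and not as support for each other. Gpnmb differed from WT by 0.93 and from KO by 0.65, Soat1 by 0.69 and 0.55, and Atp6v0d2 by 1.06 and 0.69, all called. These 3 held in 17 of 18, 12 of 18 and 13 of 18 of the fits without 1 library against WT, and in 18 of 18, 18 of 18 and 8 of 18 against KO. Abca1 differed by 0.95 (adjusted p = 0.0377) and 0.68 (adjusted p = 0.041), in 9 of 18 and 3 of 18 of the fits without a library. In a further 6 genes the WT responses were large and variable. Naglu had responses of 1.16 in E3, 1.14 ± 0.32 in WT and 0.30 ± 0.076 in KO, and Gas6 of 0.97 in E3, 1.004 ± 0.33 in WT and 0.18 ± 0.086 in KO. Scand1, Rnf128, Dusp1 and Jun had WT responses of 0.97 to 1.86, with standard errors of 0.31 to 0.41, and KO responses of -0.36 to -0.14. For all 6 the difference between E3 and KO was called and that between E3 and WT was not, and for Naglu the difference from WT was 0.012 (95% interval -0.84 to 0.86, adjusted p = 0.988). Il1b differed from WT by -0.54 (95% interval -0.95 to -0.13, adjusted p = 0.115) and from KO by -0.57 (95% interval -1.03 to -0.11, adjusted p = 0.163), neither called.

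**Figure D5:**
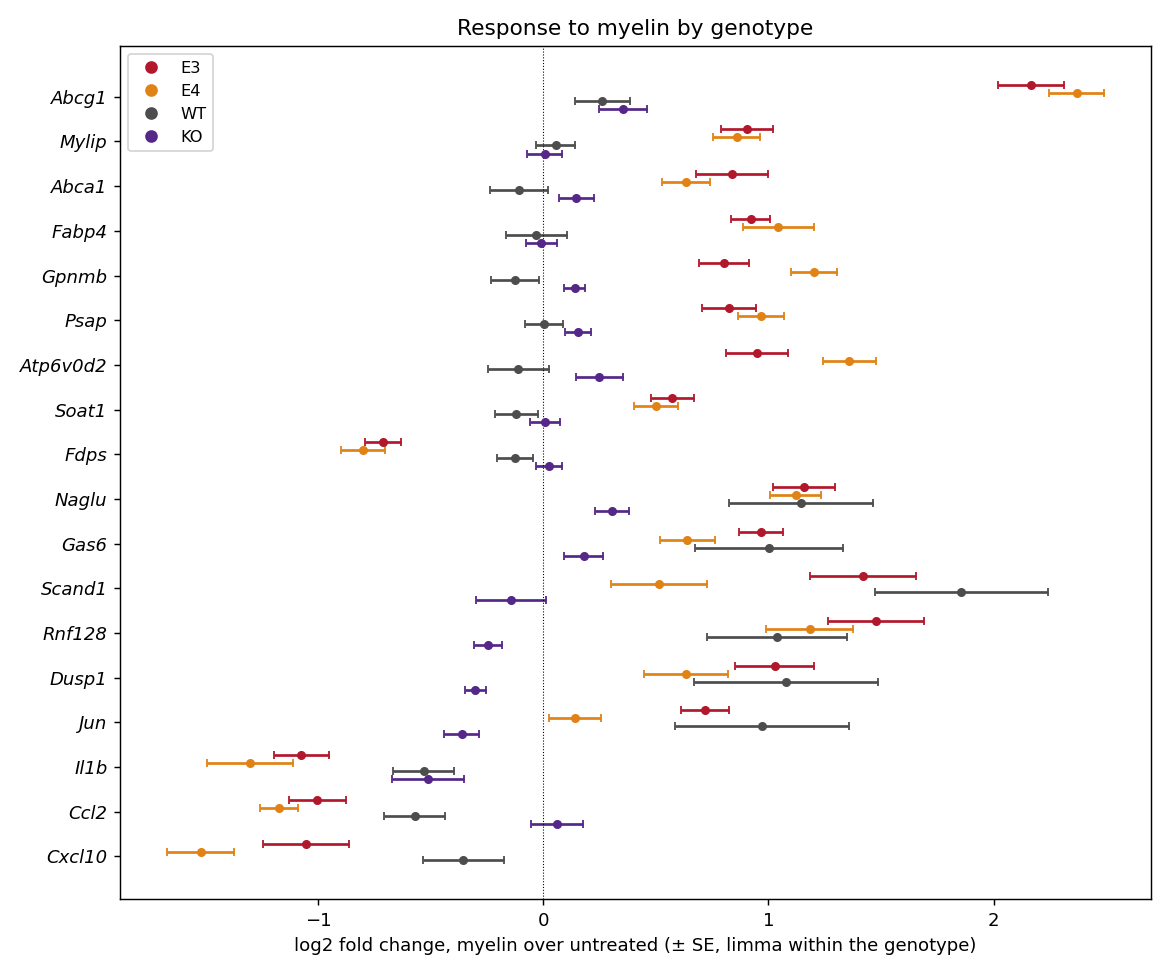
Log2 fold change of myelin over untreated for 18 genes within E3 (red, n = 4 each), E4 (orange), WT (grey) and KO (purple, n = 5 each), with bars for the standard error from limma within the genotype; KO has no point for Cxcl10, which was under its filter. From Abcg1 to Fdps the E3 and E4 points lie away from 0 and the WT and KO points lie nearer to it, and from Naglu to Jun the WT points lie near E3 with wide bars.

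The counts by list moved with single libraries, and the range over the 18 fits without 1 library is given in brackets. Over all genes tested, 1.59% had a higher and 0.854% a lower response in E3 than in WT. Against KO these shares were 2.28% and 0.893%. The lysosomal hydrolases had a higher response in E3 than in WT in 7 of 41 members (0 to 12, and 1 without E3 myelin replicate 3) and than in KO in 4 of 41 (2 to 7), and a lower one in 0 in either (0 to 1 against WT). Their median response was 0.36 in E3, 0.38 in E4, -0.049 in WT and 0.15 in KO. For the proton pump the counts were 4 of 18 (0 to 7) against WT and 3 of 18 (0 to 3) against KO, both 0 without E3 myelin replicate 3, and the median response was 0.29 in E3, 0.32 in E4, -0.054 in WT and 0.026 in KO. LXR and efflux genes had a higher response in E3 than in WT in 5 of 20 (2 to 6) and than in KO in 4 of 21 (2 to 5), with 1 lower. Cholesterol synthesis enzymes had a lower response in E3 than in WT in 1 of 19 (0 to 2) and than in KO in 2 of 19 (1 to 3). Chemokines had a lower response in E3 than in KO in 6 of 15 (2 to 6) and a higher one in 1 (0 to 1), and than in WT in 0 of 16, with a median response of -0.39 in E3, -0.35 in WT and -0.027 in KO. Cell cycle genes had a lower response in E3 than in KO in 4 of 25 (1 to 12), and the medians were -0.23 in E3 and 0.35 in KO. Fibroblast and pericyte markers had a lower response in E3 than in WT in 3 of 12 (0 to 7), with medians of -0.55 in E3 and 0.12 in WT, and astrocyte markers a higher one in E3 than in KO in 2 of 13 (0 to 2). The shift of these cell markers between the genotypes stands beside the counts above, and its part in them was not tested.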

How the data were processed

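RNA from cultured mouse microglia was sequenced as polyA-enriched libraries made with a low-input SMARTer kit, per the labels' protocols. The authors deposited TPM for 53697 genes in 47 libraries, and every column of values belongs to a sample of the series (0 do not). Per the submitters' processing notes, Salmon 0.13.1, limma 3.40.6 and mm10 were used, with no role stated. No source used here gives strandedness or further settings. TPM keep no read number, so depth, and the precision that it gives, is unknown.

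Each column was rescaled to 1000000 over nuclear protein-coding genes and divided by a trimmed-mean factor (trimming 30% of the ratios and 5% of the levels from both tails). Genes typed protein-coding or lincRNA that reached 5 scaled TPM in 4 or more of the fitted libraries were tested with limma 3.58.1 (R 4.3.3, package data.table in version 1.17.8; trend, unweighted) on log2(scaled TPM + 1), two-sided, at a Benjamini-Hochberg adjusted p of 0.05. Fold changes on this scale understate the change of low genes. Differences between genotypes are interaction contrasts. The steps were run on simulated data with independent noise for each gene, and the outcome is not reported here. That simulation held no shift shared by the genes of a library, so it does not bear on myelin replicate 3.

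Of the 684 genes in 33 lists, 552 entered the E3 test, and Hgs was left out because 2 IDs share its symbol. The other 131 did not pass the filter on gene type and level. Among them Clec7a was well above the level and was left out for its gene type. Some list members are counted but not reported here by name. A gene that passed the filter through 1 group alone had to differ. Members and lists were chosen with earlier results of these data known. Named genes are the 10 largest rises and falls among called coding genes without overlap, members of the lists, up to 5 genes by p in each direction per interaction, and Apoe. Positions come from GENCODE M21, in which 9176 tested IDs (95.91%) occur with the same version. Promoters come from RefSeq, GRCm38.p6, and motifs were searched on both strands of 250 bases before to 50 after the start. 64 of 79 lysosome genes, 15 of 19 cholesterol synthesis genes and 10 of 15 chemokine genes had an entry. Alternatives changed the scaling, pseudocount (0.1, 5), filter (none, 20), weights, eBayes, replicate block, libraries fitted and each library in turn.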

Additional observations from a re-analysis of the deposited data

Results flagged for a closer look

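In 18 of 356 groups of 4 libraries tested, which are the E3 myelin and E3 untreated libraries for the genes followed and for library measures, 1 library lay far from the other 3. Chance alone puts about 1 in 20 such groups there. E3 myelin replicate 1 lay apart in Hmgcs1 at 40.01 scaled TPM, Srebf2 at 62.6 scaled TPM, Tyrobp at 7804 scaled TPM, Cst7 at 49.2 scaled TPM and Isg15 at 25.7 scaled TPM. E3 myelin replicate 2 lay apart in Cxcl10 at 22.7 scaled TPM, Rabep1 at 39.7 scaled TPM and Lcn2 at 591 scaled TPM. E3 myelin replicate 3 lay apart in Atp6v1b2 at 307 scaled TPM, Tgfbr1 at 46.4 scaled TPM and C3ar1 at 403 scaled TPM. E3 untreated replicate 1 lay apart in Nr1h2 at 77.9 scaled TPM. E3 untreated replicate 2 lay apart in Fabp5 at 1799 scaled TPM and Gfap at 335 scaled TPM. E3 untreated replicate 3 lay apart in Sqle at 59.2 scaled TPM, Lipa at 351 scaled TPM and Eea1 at 22.99 scaled TPM. E3 untreated replicate 4 lay apart in Ifit3 at 57.8 scaled TPM. The place of these libraries in the results was not tested.

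Among the genes followed, 17 had an E3 response that differed from the WT response in the interaction test. Higher in E3, as a difference of log2 fold changes, were Abcg1 (1.90), Abca1 (0.95), Mylip (0.85), Psap (0.82), Gpnmb (0.93), Fabp4 (0.95), Soat1 (0.69), Atp6v0d2 (1.06), Fnip2 (0.97) and Arhgap24 (0.98). Lower in E3 were Fdps (-0.59), Col1a1 (-0.90), Krt19 (-1.22), Hspb2 (-1.48), Bgn (-0.77), Col5a1 (-1.11) and Slamf9 (-0.76). Among the genes followed, 22 had an E3 response that differed from the KO response in the interaction test. Higher in E3, as a difference of log2 fold changes, were Abcg1 (1.80), Abca1 (0.68), Mylip (0.89), Psap (0.66), Naglu (0.84), Gpnmb (0.65), Fabp4 (0.92), Gas6 (0.78), Rnf128 (1.71), Dusp1 (1.32), Scand1 (1.55), Jun (1.07), Soat1 (0.55), Atp6v0d2 (0.69) and Nog (1.40). Lower in E3 were Fdps (-0.75), Ccl2 (-1.08), Cxcl10 (-1.24), Hspb2 (-1.35), Slamf9 (-1.05), Fars2 (-0.73) and Tuba1b (-0.54). Against WT, Col1a1 was called in 7 of the 18 fits without 1 library. Against KO, Cxcl10 was called in 5 of 18, with KO means of 3.00 scaled TPM after myelin and 2.68 untreated, both under the filter level of 5. Hspb2 was also under that level in KO, with means of 1.46 ± 0.973 scaled TPM after myelin and 0.909 ± 0.515 untreated (SD, n = 5 each). Its difference from KO had adjusted p = 0.049 in the limma interaction test.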

How the results depend on the processing

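The count of 955 genes kept within 1.5 times of itself with the coding total alone, pseudocounts of 0.1 and 5, a filter of 20 scaled TPM, robust eBayes, the replicate block and all libraries without Het (756 to 958). It was 64 with no filter on level, where 25283 genes were tested, 1985 with library weights, and 25 and 1901 with all 47 libraries, unweighted and weighted. The cause of these shifts was not tested. Without 1 library it ranged from 373 to 1176. Against E4 every alternative gave 0. Against WT the count of 246 was 73 with the coding total alone, 5 with no filter, 878 with library weights, and 5 to 821 without 1 library. Against KO the count of 320 was 128 with no filter, 673 with library weights, and 179 to 438 without 1 library. Leaving out the libraries of E4, WT and KO was chosen after seeing the data, as were the list counts and motif shares without 1 library.

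Replicate numbers did not pair the E3 libraries: same-numbered deviations correlated at -0.19, 0.051, 0.20 and -0.055, and only replicate 3 matched its own number best. With the replicate block the counts were 894 for E3, 756 against WT and 82 against KO. Of 244 results for single genes, none of the 166 called changed sign under any alternative, while 23 of the 78 not called did. Called results lay away from 0 from the start, so their signs could hardly turn under any alternative. Of 129 genes called, 4 passed under every one. Depth is unknown and limits what low genes can show.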
